A study of Sus scrofa with 15 samples.

Results

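A total of 129 pig genes stood at the fibroblast level in cloned 4-cell embryos and below it in cloned 8-cell embryos. They were chosen from 28224 gene entries of a table of normalized read counts by 3 limits on group means with 1 added. The mean in pig fetal fibroblasts (PFF) had to be at least 50, its ratio to the 8-cell mean above 3, and its ratio to the 4-cell mean under 2. All are therefore high in PFF and in untreated 4-cell embryos and low in 8-cell embryos by construction, and these differences carry no test. Of 8659 genes with a PFF mean of at least 50, 4793 were below PFF in both stages by these limits and 2635 in neither.

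The study measured RNA in embryos made by somatic cell nuclear transfer (SCNT), in which the nucleus of a body cell is placed in an enucleated oocyte. Each of 5 groups had 3 libraries. PFF were the primary fetal fibroblasts used as donors, at passages 2 to 5. SCNT4c and SCNT8c were untreated embryos at the 4-cell and 8-cell stage. SCNT4c-KG embryos received mRNA of *KDM4A*, a demethylase of histone H3K9, together with GSK126, which inhibits EZH2, the enzyme that methylates histone H3K27. SCNT4c-TDG embryos were made from fibroblasts selected for a doxycycline-inducible vector with *TDG*, a glycosylase of DNA demethylation, and were exposed to doxycycline. All embryos came from enucleated oocytes and had a PFF nucleus, and each embryo library was a pool of 30 embryos. The labels give no genotype, sex or age of the donors, the letters dx in the descriptions of the PFF samples are not explained, and embryos with doxycycline but without the vector were not analysed here.

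After transfer, a donor nucleus is expected to give up the expression programme of its cell type while the embryo uses up RNA stored by the oocyte and starts its own transcription. An RNA that is as abundant in a cloned embryo as in the donor may come from transcription that persists, from RNA the oocyte stored or from new embryonic transcription. Methylation of H3K9, H3K27 and DNA is known as a barrier to this reset.

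The set held none of the markers by which fibroblasts are usually recognised. Of 28 measured fibroblast markers, which include collagens, vimentin and fibronectin, 24 had a PFF mean of at least 50 and 0 were among the 129 genes, because all 24 were at least 5-fold lower in SCNT4c. For the other lists, genes with a lower PFF mean could not be members. Genes were counted as measured if they had an entry, also at a value of 0. Of 14 measured cumulus cell markers 4 reached a PFF mean of 50 and 0 were members, and of 24 measured oocyte and maternal genes 3 reached it and 1 was a member, *UHRF1*. Of 50 measured genes of the DNA damage response 30 reached it, and of 68 measured genes of ubiquitin conjugation 56, and 0 of either list were members. Over all 8659 genes with a PFF mean of at least 50, 129 were members, so a count of 0 in lists of this size is near that share. The members came from many families, of which receptors and signalling proteins and genes of lysosomes, lipids and metabolism were the most frequent, with 27 and 20 genes.

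Of the 129 genes, 113 had a gene symbol and 16 had only a LOC number. RefSeq places all 129 on Sscrofa11.1, on 19 chromosomes, and annotates 119 as protein coding. The closest neighbours were *SUN2* and *GTPBP1*, which lie 1.1 kb apart on chromosome 5, and *POGZ* and *RFX5*, 68.7 kb apart on chromosome 4. The PFF mean had a median of 205, from 50.2 to 78799, and was under 100 for 37 genes. Reads were counted on features with a strand setting that is not given in the sources used here, so reads of a gene and of an antisense partner cannot be told apart. *IFN-OMEGA-3* belongs to a family of near-identical interferon genes, and its values are uncertain for that reason.

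Recovered reads numbered 22224949 to 22868038 in PFF, 20460653 to 22530486 in SCNT4c, 12354649 to 15390472 in SCNT4c-KG, 17757929 to 19564459 in SCNT4c-TDG and 18083559 to 19549670 in SCNT8c, where 1 read was worth a value of 0.765 to 1.63. *KDM4A* stood at 194 ± 103 in SCNT4c, 1448 ± 24.9 in SCNT4c-KG and 775 ± 194 in SCNT4c-TDG (mean ± SD, n = 3 libraries, as for all values below). *TDG* stood at 1713 ± 802 in SCNT4c, 55575 ± 5177 in SCNT4c-TDG and 4366 ± 436 in SCNT4c-KG, so each was also higher in the group labelled with the other treatment. The labels' descriptions conflict with the titles, since those of the SCNT4c-KG samples are the names that the table gives to the untreated 4-cell columns. Groups were taken from titles and column names, under which the columns named for KG hold the higher *KDM4A* values. If the descriptions were followed instead, SCNT4c and SCNT4c-KG would be exchanged, which would change the genes that meet the rule and turn each ratio between these groups. The SCNT4c libraries were matched to their group only and are called a, b and c. SCNT8c replicate 3, whose description carries another number than its title, stood apart, with a summed value over 24 oocyte and maternal genes of 427998, against 185808 and 98901 in replicates 1 and 2 and 409572 to 464725 in SCNT4c. Nothing in the labels says that the libraries of a group came from separate batches of embryos, so the errors may be technical. In pools of whole embryos, fewer cells with an RNA and less of it per cell cannot be told apart.

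The choice of the members rested on single libraries to a large degree. Without SCNT4c library a 49 of the 129 genes no longer met the rule, without library b 11 and without library c 6, and 67 met it without each of the 3. In 24 genes library a was more than 3 times the mean of libraries b and c, among them *SUN2*, *CCDC61*, *YPEL3*, *TLX3*, *CNR1* and *SOCS1*. In 38 genes every SCNT4c library was above 0.5 times the PFF mean, among them *UCHL1*, *DYNC1I2*, *CCDC50*, *DDX58*, *PIP4K2B*, *CORO1C*, *RANBP9* and *NOX4*. SCNT8c replicate 3 was the highest of the 3 SCNT8c libraries in 91 of 129 genes, and 244 genes met the rule without it. Scaling every library to the same total replaced most of the set, since 112 genes met it and 98 of the 129 genes were lost. The summed normalized values were 27255378 to 28305781 in PFF and 17770582 to 18530909 in SCNT4c, so the level of PFF against the embryos depends on the authors' factors.

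**Figure D1:**
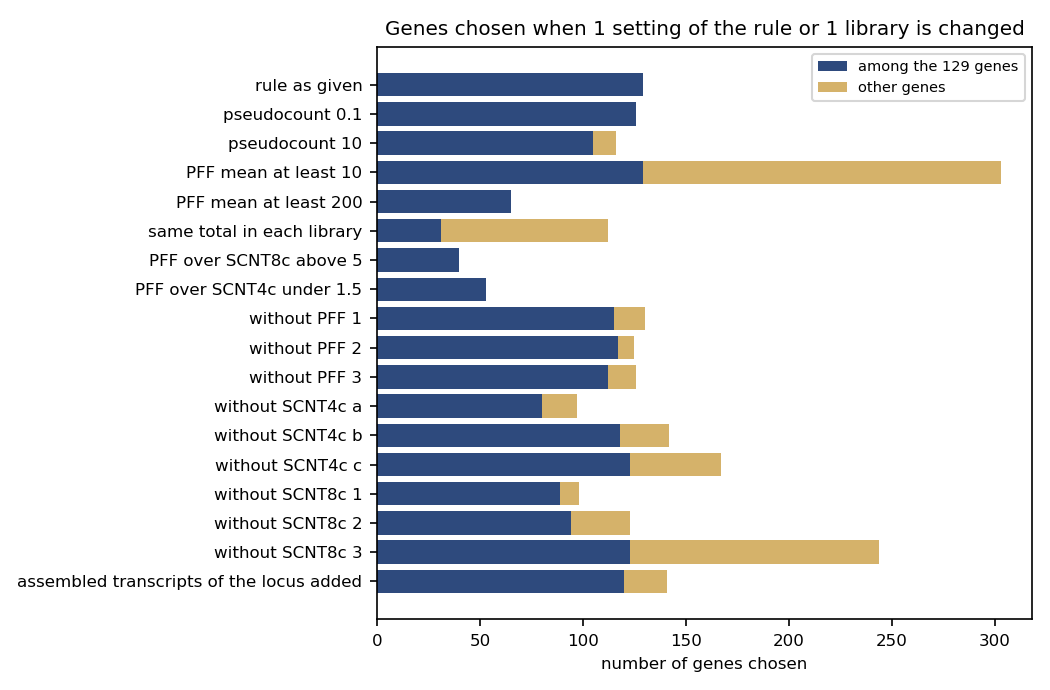
Number of genes (x axis) that met the 3 limits under the rule as given and with 1 setting or 1 library changed (y axis), split into the 129 genes and other genes. With the same total in each library 31 of the 129 genes were chosen again, and without SCNT8c replicate 3 the number rose to 244.

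At the limits themselves, *UNC5A* was just inside with a PFF to SCNT4c ratio of 1.99 and *EHHADH* just outside with 2.00. For the ratio of PFF to SCNT8c, *IL1R1* was inside with 3.03 and *KCMF1* outside with 2.996. For the PFF mean, LOC100513604 was inside with 50.2 and LOC102163243 outside with 49.8. Within 10% of the limit on the SCNT4c ratio lay 38 members and 36 other genes.

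The level of the whole set in each library shows the selection and what it left free. In the median gene, SCNT4c libraries a, b and c stood at 74.6%, 58.1% and 50.6% of the PFF mean, and SCNT8c replicates 1, 2 and 3 at 15.2%, 15.1% and 38.5%. These 6 libraries chose the genes. SCNT4c-KG replicates stood at 25.6%, 24.5% and 24.4% and SCNT4c-TDG replicates at 28.1%, 26.4% and 33.2%, so all 6 treated libraries lay below all 3 SCNT4c libraries in this median and between SCNT8c replicates 1 and 2 on the low side and replicate 3 on the high side. The median over all 8659 genes with a PFF mean of at least 50 was 16.4% to 18.8% in SCNT4c, 20.4% to 20.5% in SCNT4c-KG and 21.6% to 24.5% in SCNT4c-TDG. A gene chosen for a high SCNT4c mean is partly chosen for upward error in these libraries, so a group that was not used for the choice can lie below SCNT4c without any effect of treatment.

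**Figure D2:**
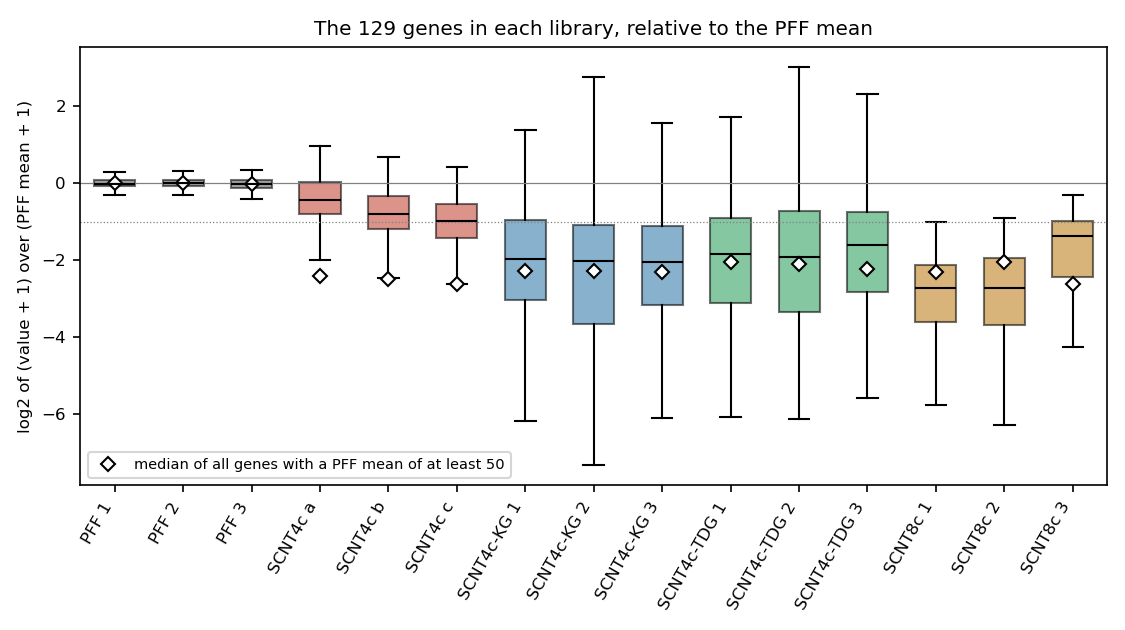
Level of the 129 genes in each library (x axis) as the log2 ratio of value + 1 to the PFF mean + 1 (y axis). Boxes give the quartiles and the median, whiskers reach the last value within 1.5 times the box height, points beyond are not drawn, and diamonds give the median of all genes with a PFF mean of at least 50. The treated libraries lie below SCNT4c and close to the diamonds, and SCNT8c 3 lies above the other SCNT8c libraries.

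Measured against the SCNT4c mean, most of the 129 genes were lower in the treated embryos, but this comparison uses the same SCNT4c libraries that chose the genes. In SCNT4c-KG 84 genes were under 0.5 times the SCNT4c mean (65.1%, where 35.1% of 18942 features with an embryo mean of at least 10 were), 11 were over 2 times (28.1% of all features) and 34 lay between. In SCNT4c-TDG 72 were under 0.5 times (55.8%, against 37% of all features), 11 over 2 times (25.7% of all features) and 46 between. All 3 SCNT4c-KG libraries lay below all 3 SCNT4c libraries for 72 genes, where 29.6% of all features did so, and all 3 SCNT4c-TDG libraries for 68 genes, where 33.2% did. The median ratio to SCNT4c was 0.408 in SCNT4c-KG and 0.431 in SCNT4c-TDG. With genes chosen and compared without SCNT4c library a, the shares under 0.5 times were 61.9% and 44.3% of 97 genes (32.9% and 34.8% of all features), and without SCNT8c replicate 3 they were 69.7% and 59.4% of 244 genes. Both comparisons share the SCNT4c libraries. RNAs of other origin moved between these groups as well, with summed values over 24 oocyte and maternal genes of 409572 to 464725 in SCNT4c, 230614 to 400882 in SCNT4c-KG and 116049 to 175125 in SCNT4c-TDG. The genes of this list did not move together. In the same order *ZP4* averaged 74784, 35050 and 11245, and *ZP3* averaged 28.1, 667 and 74.6. *GDF9* and *BMP15* had a value of 0 in every library. Summed over 28 fibroblast markers the values in the same order were 9789 to 11338, 16908 to 23568 and 5803 to 8048, and over 14 cumulus cell markers 4067 to 4192, 2104 to 5093 and 1714 to 3477. The fibroblast markers did not move together. *COL1A1*, *COL1A2*, *COL3A1* and *FN1* averaged 549, 2535, 295 and 508 in SCNT4c and less in SCNT4c-KG, at 295, 472, 76.4 and 160. *VIM* and *THY1* averaged 482 and 106 in SCNT4c and more in SCNT4c-KG, at 1380 and 700. The part of these RNAs in the result was not tested.

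The size of this bias can be seen by letting 1 SCNT4c library choose the genes and comparing with the other 2. With library a as the only SCNT4c library in the rule, 224 genes were chosen, and 75% of them were under 0.5 times that library in SCNT4c-KG (35.7% of all features) but 48.2% under 0.5 times the mean of libraries b and c (32.9% of all features). With library b, 128 genes were chosen, and the shares were 62.5% (32.9% of all features) and 46.9% (35.2%). With library c, 99 genes were chosen, and the shares were 57.6% (31.7% of all features) and 51.5% (35.5%). For SCNT4c-TDG the shares against the choosing library were 73.7%, 52.3% and 47.5%, where 37.3%, 35% and 33.2% of all features were under 0.5 times it. Against the other 2 libraries they were 42.4%, 42.2% and 42.4%, where 34.8%, 37.1% and 37.4% of all features were. Against libraries that had not chosen the genes, the SCNT4c-TDG shares lay above those of all features by less than the SCNT4c-KG shares did, and this difference was not tested. In each of these 6 cases the share was smaller against the libraries that had not chosen the genes.

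The same choice by 1 SCNT4c library was followed by limma on all embryo libraries but that one, so that the treated groups were compared with SCNT4c libraries that had not chosen the genes. The SCNT8c libraries entered both the choice and the estimate of the spread. A call needed a Benjamini-Hochberg adjusted p under 0.05 over all tested features and a fold change above 2. For library a, 201 of the 224 chosen genes passed the filter on low values, and 46 were called lower in SCNT4c-KG (22.9% of those tested and 20.5% of those chosen, against 14% of all tested features) and 17 higher (8.46% of those tested, against 16.1%). For library b, 124 of 128 were tested, and 31 were lower (25% of those tested and 24.2% of those chosen, against 13.9%) and 7 higher (5.65% of those tested, against 15%). For library c, 96 of 99 were tested, and 28 were lower (29.2% of those tested and 28.3% of those chosen, against 15.1%) and 5 higher (5.21% of those tested, against 16%). In SCNT4c-KG the share called lower was above the share of all features for each choosing library, by either denominator, and the share called higher was below it. The chosen genes had to be high in 1 SCNT4c library and low in SCNT8c, and the other features did not. The background was thus not matched for level, here, in the shares above and for SCNT4c-TDG below. Part of each difference can come from the choice, and its size was not tested.

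In SCNT4c-TDG 27 of 201, 17 of 124 and 13 of 96 tested genes were called lower (13.4%, 13.7% and 13.5% of those tested, and 12.1%, 13.3% and 13.1% of those chosen), which is close to the 13%, 12.8% and 13.8% of all features. Called higher were 16, 10 and 4 genes (7.96%, 8.06% and 4.17% of those tested), where 13.8%, 12.8% and 13.9% of all features were. SCNT8c replicate 3 bears on both results. Without it in the choice and the fit, 124 of 304, 105 of 237 and 103 of 194 tested genes were called lower in SCNT4c-KG (40.8%, 44.3% and 53.1%, against 20%, 19.7% and 21.2% of all features). In SCNT4c-TDG 99, 84 and 79 of them were then called lower (32.6%, 35.4% and 40.7%, against 18.2%, 17.9% and 19.6%). The SCNT4c-TDG share was near that of all features with this library included and above it without.

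**Figure D3:**
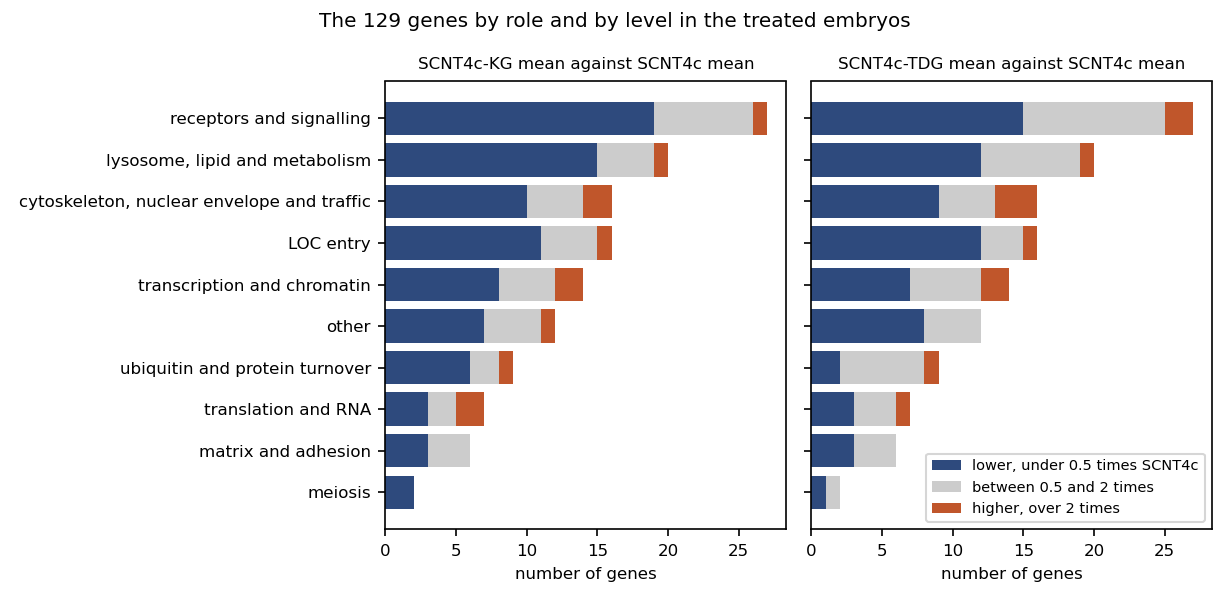
Number of the 129 genes (x axis) in each role group (y axis) that were under 0.5 times, between 0.5 and 2 times, or over 2 times the SCNT4c mean in SCNT4c-KG and in SCNT4c-TDG. Genes under 0.5 times form the largest class in most groups, and in the ubiquitin group this holds for SCNT4c-KG with 6 of 9 genes and not for SCNT4c-TDG with 2 of 9.

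The 4 promoter stretches below are shown because all treated libraries of *UCHL1* and *HRH1* were below the SCNT4c libraries, and those of *NUP133* and *RFX5* above them, and because both treatments act on chromatin or DNA methylation. Each is the 250 bases before the RefSeq start of the gene on Sscrofa11.1, written in the direction of the gene, with CG dinucleotides, the main sites of DNA methylation, in capitals.
UCHL1 (chr8:32353516-32353765, + strand): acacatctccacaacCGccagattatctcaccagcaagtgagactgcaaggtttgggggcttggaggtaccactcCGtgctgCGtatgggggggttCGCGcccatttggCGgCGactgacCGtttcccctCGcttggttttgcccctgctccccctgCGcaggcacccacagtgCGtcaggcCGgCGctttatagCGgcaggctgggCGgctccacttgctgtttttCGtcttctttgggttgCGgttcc
HRH1 (chr13:67209011-67209260, + strand): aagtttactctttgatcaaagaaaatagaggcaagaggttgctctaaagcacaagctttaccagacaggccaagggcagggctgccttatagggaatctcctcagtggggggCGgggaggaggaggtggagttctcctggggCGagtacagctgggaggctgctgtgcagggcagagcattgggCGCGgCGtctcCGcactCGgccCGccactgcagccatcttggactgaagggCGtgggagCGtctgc
NUP133 (chr14:60353170-60353419, + strand): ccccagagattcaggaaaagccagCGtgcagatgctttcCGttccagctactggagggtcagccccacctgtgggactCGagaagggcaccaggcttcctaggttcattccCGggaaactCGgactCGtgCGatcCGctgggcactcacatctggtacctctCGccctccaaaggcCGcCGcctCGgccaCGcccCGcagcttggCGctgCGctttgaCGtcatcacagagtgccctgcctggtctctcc
RFX5 (chr4:97901705-97901954, + strand): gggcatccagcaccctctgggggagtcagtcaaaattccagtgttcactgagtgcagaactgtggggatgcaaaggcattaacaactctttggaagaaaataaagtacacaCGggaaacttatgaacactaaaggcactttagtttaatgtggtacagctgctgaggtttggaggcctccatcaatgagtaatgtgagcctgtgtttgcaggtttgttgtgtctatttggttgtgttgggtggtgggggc
These hold 17, 10, 17 and 1 CG dinucleotides, so the genes that stood high in treated embryos were not alike in this respect. Over the 129 genes the median was 14 CG dinucleotides and 58.0% G and C, with an observed to expected ratio of CG above 0.6 in 60.5%. Over 8485 other genes with a PFF mean of at least 50 the medians were 17 and 61.6%, with 69.5% above 0.6. The 129 genes spanned a median of 46.4 kb and the others 26.3 kb. These are descriptions with no test, and DNA methylation of these sites was not analysed here.

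Translation and RNA genes included the member with the highest PFF mean. *EIF4G2* encodes a relative of initiation factor eIF4G that does not bind the cap-binding protein, and it was listed at 79934, 79444 and 77020.0 in PFF, at 32677, 37211 and 52679 in SCNT4c, at 8257, 10113 and 18517 in SCNT4c-KG, at 27848, 26258 and 22320.3 in SCNT4c-TDG and at 23564, 24099 and 26347 in SCNT8c. All SCNT4c-KG libraries were below all SCNT4c libraries, and the SCNT4c-TDG libraries lay between the 2 groups. *EPRS*, the synthetase that charges tRNA with glutamate and proline, was listed at 15215, 15808 and 15417 in PFF, at 9847, 9867 and 6922 in SCNT4c, at 4703, 3797 and 3292 in SCNT4c-KG, at 1678, 1527 and 1835 in SCNT4c-TDG and at 3861, 3945 and 6777 in SCNT8c. Its SCNT4c-TDG libraries were the lowest of all 5 groups. *DDX58*, which encodes the viral RNA sensor RIG-I, had means of 4236 ± 1254 in PFF, 2982 ± 371 in SCNT4c, 695 ± 145 in SCNT4c-KG, 977 ± 276 in SCNT4c-TDG and 1003 ± 1131 in SCNT8c. *GTPBP1*, a GTP-binding protein related to translation factors, had means of 1113 ± 24.5 in PFF, 697 ± 142 in SCNT4c, 398 ± 74.4 in SCNT4c-KG, 342 ± 22.7 in SCNT4c-TDG and 355 ± 55.7 in SCNT8c.

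The other members of this group were not low in SCNT4c-KG. *PAIP2B*, an inhibitor of the poly(A)-binding protein, averaged 296 ± 11.4 in PFF, 242 ± 196 in SCNT4c, 347 ± 51.8 in SCNT4c-KG, 229 ± 59.8 in SCNT4c-TDG and 78.4 ± 86.1 in SCNT8c. *RSRP1*, an arginine- and serine-rich protein, averaged 199.7 ± 22.3 in PFF, 128 ± 90.2 in SCNT4c, 284 ± 64.7 in SCNT4c-KG, 208 ± 44.1 in SCNT4c-TDG and 59.1 ± 26.7 in SCNT8c. *NAT10*, which acetylates cytidine in RNA, was listed at 68.4, 75.1 and 82.2 in PFF, at 29.2, 113 and 65.6 in SCNT4c, at 461, 514 and 466 in SCNT4c-KG, at 143, 169.5 and 236 in SCNT4c-TDG and at 37.3, 14.1 and 18 in SCNT8c. All treated libraries of *NAT10* lay above all SCNT4c libraries. Of the 7 genes of this group, 3 were under 0.5 times the SCNT4c mean in SCNT4c-KG and 3 in SCNT4c-TDG.

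Genes of ubiquitin and protein turnover numbered 9, and none of them was on the list of 68 measured enzymes of ubiquitin conjugation. *UCHL1*, a deubiquitinating hydrolase that is abundant in neurons and germ cells, was listed at 14479.8, 14618 and 15069 in PFF, at 14231, 21986 and 18835 in SCNT4c, at 11113, 6524 and 6046 in SCNT4c-KG, at 3321, 2447 and 3488 in SCNT4c-TDG and at 3457, 4149.9 and 6526 in SCNT8c. It is 1 of 8 members with an SCNT4c mean above the PFF mean, and its SCNT4c-TDG libraries lay below its SCNT4c-KG libraries. *CCDC50*, a ubiquitin-binding protein of autophagy, was listed at 4959, 4981 and 5170.3 in PFF, at 4423, 2904 and 2729 in SCNT4c, at 807, 452 and 659.7 in SCNT4c-KG, at 1548, 1563 and 2355 in SCNT4c-TDG and at 583, 823 and 3362 in SCNT8c. Its SCNT4c-KG libraries did not overlap with any other embryo group of the 4-cell stage.

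*ZFAND5*, a zinc finger protein that binds ubiquitin and the proteasome, was listed at 5878, 6177 and 5599 in PFF, at 2363, 3721 and 3352 in SCNT4c, at 3138, 3042 and 3299 in SCNT4c-KG, at 8626, 7728 and 8368 in SCNT4c-TDG and at 1322, 745 and 2919 in SCNT8c. Its SCNT4c-KG values lay within the SCNT4c range and its SCNT4c-TDG values above it. *UBFD1*, a protein with a ubiquitin-like domain, was listed at 4811, 4969.6 and 4852 in PFF, at 4155, 1739.8 and 1819.9 in SCNT4c, at 1034, 916 and 604 in SCNT4c-KG, at 1829, 2152 and 1881 in SCNT4c-TDG and at 397, 214 and 2229 in SCNT8c, and library a supplied the high SCNT4c mean. *ZFAND2A*, an arsenite-inducible protein bound to the proteasome, was listed at 62.3, 62.4 and 71.5 in PFF, at 93.1, 58.5 and 26.6 in SCNT4c, at 497, 435 and 396 in SCNT4c-KG, at 42.6, 39.1 and 19.1 in SCNT4c-TDG and at 17.7, 9.14 and 3.17 in SCNT8c. Only SCNT4c-KG was high, with every library at 396 or more.

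*RANBP9*, a scaffold of the CTLH ubiquitin ligase, was listed at 3033, 2811 and 2870.0 in PFF, at 2451, 3224 and 2643 in SCNT4c, at 849, 991 and 862 in SCNT4c-KG, at 3503, 4074 and 4478 in SCNT4c-TDG and at 520.0, 482 and 1815 in SCNT8c. *KCTD5*, an adaptor of cullin ubiquitin ligases, had means of 1077 ± 65.3 in PFF, 789 ± 938 in SCNT4c, 223 ± 131 in SCNT4c-KG, 288 ± 75.2 in SCNT4c-TDG and 237 ± 181 in SCNT8c. *KLHL7*, also an adaptor of cullin ligases, had means of 643 ± 71.1 in PFF, 446 ± 162 in SCNT4c, 185 ± 39.4 in SCNT4c-KG, 527 ± 108 in SCNT4c-TDG and 127 ± 97.4 in SCNT8c. *RNF152*, a ubiquitin ligase of the lysosomal membrane, had means of 235 ± 39.6 in PFF, 122.7 ± 142 in SCNT4c, 163 ± 64.7 in SCNT4c-KG, 116 ± 24.1 in SCNT4c-TDG and 52.4 ± 46.4 in SCNT8c. In SCNT4c-KG 6 of the 9 genes were under 0.5 times the SCNT4c mean and in SCNT4c-TDG 2 were, *UCHL1* and *KCTD5*.

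**Figure D4:**
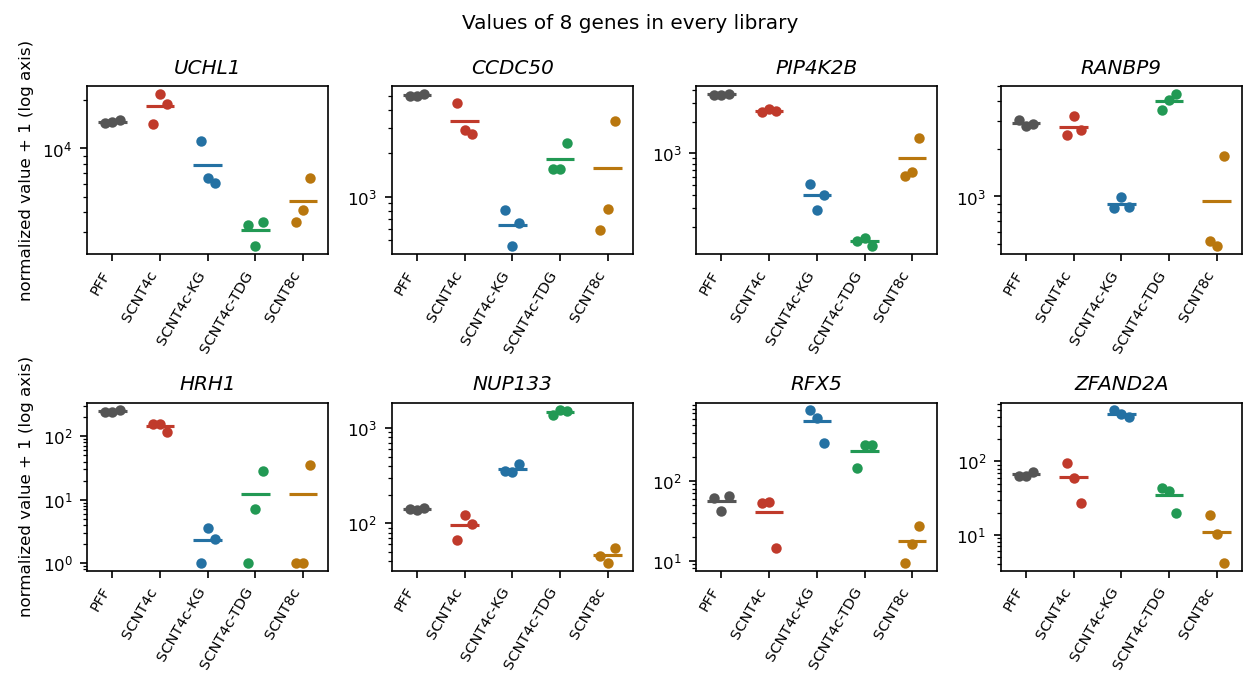
Values of 8 of the genes in every library, as normalized value + 1 on a log axis (y axis) by group (x axis). Points are libraries and bars are group means. *UCHL1*, *CCDC50*, *PIP4K2B* and *HRH1* stood below SCNT4c in both treated groups, *NUP133* and *RFX5* above it in both, *ZFAND2A* was above all other groups in SCNT4c-KG, and *RANBP9* was below SCNT4c in SCNT4c-KG and above it in SCNT4c-TDG.

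Lysosomal, lipid and metabolic genes numbered 20, of which 15 were under 0.5 times the SCNT4c mean in SCNT4c-KG and 12 in SCNT4c-TDG. *GAA*, the lysosomal glucosidase that degrades glycogen, was listed at 2984, 3009.5 and 2920.0 in PFF, at 2549, 1077 and 992 in SCNT4c, at 341, 469.5 and 232 in SCNT4c-KG, at 82.8, 79 and 61.2 in SCNT4c-TDG and at 463, 186 and 2048 in SCNT8c. Its SCNT4c libraries spread widely, with library a the highest, but every treated library was below the lowest of them. *PIP4K2B*, a phosphatidylinositol phosphate kinase, was listed at 3614, 3618 and 3695 in PFF, at 2492, 2613 and 2536 in SCNT4c, at 508, 288 and 405 in SCNT4c-KG, at 147, 156 and 129.3 in SCNT4c-TDG and at 603, 670.0 and 1405 in SCNT8c, with close replicates in SCNT4c and the lowest values in SCNT4c-TDG.

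Enzymes of phospholipids and triglycerides differed among themselves. *DDHD2*, a lipase, was listed at 2889, 2774 and 2833 in PFF, at 1314, 1644 and 1669.7 in SCNT4c, at 683, 906 and 1110.0 in SCNT4c-KG, at 2141, 2161 and 2889 in SCNT4c-TDG and at 653, 525 and 1092 in SCNT8c. *LPIN2*, a phosphatidate phosphatase, had means of 2719.5 ± 34.2 in PFF, 1366 ± 175 in SCNT4c, 547 ± 91.4 in SCNT4c-KG, 1347 ± 217 in SCNT4c-TDG and 654 ± 191 in SCNT8c. *LPGAT1*, an acyltransferase of lysophospholipids, had means of 4565 ± 116 in PFF, 2362 ± 542 in SCNT4c, 2660.0 ± 636 in SCNT4c-KG, 3387 ± 462 in SCNT4c-TDG and 1259 ± 1166 in SCNT8c. *MBOAT1*, another lysophospholipid acyltransferase, had means of 1313 ± 135 in PFF, 800.1 ± 214 in SCNT4c, 326 ± 44.6 in SCNT4c-KG, 458 ± 26.7 in SCNT4c-TDG and 286 ± 154 in SCNT8c. *CERS6*, a ceramide synthase, had means of 53.3 ± 12.2 in PFF, 115 ± 47.9 in SCNT4c, 20.1 ± 11.06 in SCNT4c-KG, 18.2 ± 13.6 in SCNT4c-TDG and 12 ± 10.9 in SCNT8c. *SCD5*, a stearoyl-CoA desaturase, had means of 54.1 ± 4.32 in PFF, 52.1 ± 4.96 in SCNT4c, 24.8 ± 18.7 in SCNT4c-KG, 12.5 ± 14.1 in SCNT4c-TDG and 14 ± 7.31 in SCNT8c. In SCNT4c-TDG *CERS6* and *SCD5* were under 0.5 times the SCNT4c mean and the other 4 were not.

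Genes of autophagy, peroxisomes and redox followed. *ATG2B*, a lipid transfer protein of autophagosome growth, was listed at 2116, 2475 and 2199 in PFF, at 1021, 1261 and 1206 in SCNT4c, at 523, 760.1 and 627 in SCNT4c-KG, at 2096, 1774 and 2194 in SCNT4c-TDG and at 536, 373 and 849 in SCNT8c. *ABHD17B*, which removes palmitate from proteins, had means of 887 ± 84.3 in PFF, 1095 ± 1191 in SCNT4c, 607 ± 139 in SCNT4c-KG, 2135 ± 165 in SCNT4c-TDG and 263 ± 100.2 in SCNT8c, and its SCNT4c libraries ranged from 330.4 to 2467. *PEX26*, needed to import peroxisomal matrix proteins, had means of 1910.3 ± 49.4 in PFF, 1010.4 ± 376 in SCNT4c, 159 ± 61.2 in SCNT4c-KG, 138 ± 53.1 in SCNT4c-TDG and 587 ± 479 in SCNT8c. *NOX4*, an oxidase that makes hydrogen peroxide, had means of 2739 ± 353 in PFF, 1817 ± 190.0 in SCNT4c, 326 ± 45 in SCNT4c-KG, 840.2 ± 237 in SCNT4c-TDG and 495 ± 410.1 in SCNT8c. *GPX3*, a secreted glutathione peroxidase, had means of 2135 ± 124 in PFF, 1383 ± 241 in SCNT4c, 681 ± 145 in SCNT4c-KG, 341 ± 56 in SCNT4c-TDG and 588 ± 315 in SCNT8c. All but *ABHD17B* had every SCNT4c-KG library below the SCNT4c libraries.

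Of the remaining enzymes, *PCBD1*, a dehydratase of tetrahydrobiopterin recycling, was listed at 1071, 1139.9 and 1187 in PFF, at 843, 1017 and 489 in SCNT4c, at 5547, 3586 and 3074 in SCNT4c-KG, at 2993, 2912 and 2063 in SCNT4c-TDG and at 262, 211 and 644 in SCNT8c, with all 6 treated libraries above all SCNT4c libraries. *GMPR*, a guanosine monophosphate reductase, had means of 479.6 ± 57.1 in PFF, 279.7 ± 77.4 in SCNT4c, 138 ± 64.3 in SCNT4c-KG, 65.3 ± 29 in SCNT4c-TDG and 119.5 ± 94 in SCNT8c. *PRKAG2*, a subunit of the energy sensor AMPK, had means of 319.9 ± 35.9 in PFF, 169 ± 45.9 in SCNT4c, 28.4 ± 34.7 in SCNT4c-KG, 22.2 ± 11.3 in SCNT4c-TDG and 95.5 ± 135 in SCNT8c. *MANEAL*, a mannosidase-like protein, had means of 175 ± 22.7 in PFF, 90.3 ± 94 in SCNT4c, 35.1 ± 19.4 in SCNT4c-KG, 9.9 ± 6.46 in SCNT4c-TDG and 45.3 ± 26.2 in SCNT8c. *AKR1E2*, an aldo-keto reductase, had means of 65.5 ± 27.3 in PFF, 39.4 ± 22.6 in SCNT4c, 8.23 ± 7.51 in SCNT4c-KG, 11.2 ± 5.51 in SCNT4c-TDG and 20.6 ± 12.4 in SCNT8c. *GLYATL2*, an acyltransferase to glycine, was listed at 69.6, 68.8 and 48.9 in PFF, at 45.7, 22.7 and 26.6 in SCNT4c, at 4.9, 17.8 and 0 in SCNT4c-KG, at 2.51, 0 and 0 in SCNT4c-TDG and at 24.3, 4.16 and 0 in SCNT8c, and its SCNT4c-TDG values are those of 0 to 3 reads. Leaving out *PCBD1*, these 5 genes were under 0.5 times the SCNT4c mean in both treated groups.

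Genes of the cytoskeleton, the nuclear envelope and traffic numbered 16, of which 10 were under 0.5 times the SCNT4c mean in SCNT4c-KG and 9 in SCNT4c-TDG. *DYNC1I2*, an intermediate chain of cytoplasmic dynein, was listed at 11365, 11438 and 10989 in PFF, at 6336, 8926 and 8774 in SCNT4c, at 6526, 5316 and 5234 in SCNT4c-KG, at 4935, 5138 and 5150.2 in SCNT4c-TDG and at 2475, 2524 and 4606 in SCNT8c. Its treated values were closer to SCNT4c than those of most members, with ratios of 0.71 and 0.633. *NUP133*, a scaffold protein of the nuclear pore, was listed at 140.5, 138 and 145 in PFF, at 66.3, 121 and 98 in SCNT4c, at 351, 346 and 422 in SCNT4c-KG, at 1361, 1542 and 1494 in SCNT4c-TDG and at 43.9, 37.4 and 53.9 in SCNT8c. All SCNT4c-KG libraries were above PFF and SCNT4c, and all SCNT4c-TDG libraries were above SCNT4c-KG. *CARMIL1*, which keeps actin filament ends uncapped, was listed at 44, 54.8 and 64.4 in PFF, at 17.4, 76 and 37.4 in SCNT4c, at 127, 136 and 149.6 in SCNT4c-KG, at 312, 451 and 403 in SCNT4c-TDG and at 12.1, 0.831 and 34.9 in SCNT8c, in the same order of groups.

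Regulators of actin included 4 others. *CORO1C*, a coronin that binds actin, was listed at 3507, 3564 and 3548 in PFF, at 1992, 1997 and 1984 in SCNT4c, at 846, 966 and 711 in SCNT4c-KG, at 235, 275 and 287 in SCNT4c-TDG and at 739, 832 and 1701 in SCNT8c. *JMY*, an actin nucleator and cofactor of p53, was listed at 2193, 2345 and 2477 in PFF, at 1449.7, 1024 and 1045 in SCNT4c, at 341, 395 and 432 in SCNT4c-KG, at 1167, 1729 and 1768 in SCNT4c-TDG and at 471, 337 and 909.7 in SCNT8c. *SPIRE1*, an actin nucleator that acts on vesicles, had means of 1164 ± 23 in PFF, 915 ± 139.9 in SCNT4c, 456 ± 81 in SCNT4c-KG, 469 ± 174 in SCNT4c-TDG and 352 ± 226 in SCNT8c. *FGD1*, an exchange factor of the GTPase CDC42, had means of 881 ± 87.3 in PFF, 555 ± 138 in SCNT4c, 141 ± 65.2 in SCNT4c-KG, 55 ± 6.88 in SCNT4c-TDG and 150.3 ± 86.1 in SCNT8c. In all 4 the SCNT4c-KG libraries lay below the SCNT4c libraries, and in *JMY* the SCNT4c-TDG libraries overlapped with them.

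*SUN2*, which links the nuclear envelope to the cytoskeleton, had means of 3933 ± 238 in PFF, 3594 ± 2597 in SCNT4c, 589 ± 256 in SCNT4c-KG, 283 ± 42 in SCNT4c-TDG and 956 ± 787 in SCNT8c, and SCNT4c library a was more than 3 times the mean of b and c. *FRMD4A*, a scaffold of epithelial polarity, had means of 1449.6 ± 59.4 in PFF, 772 ± 252 in SCNT4c, 486 ± 9.7 in SCNT4c-KG, 238 ± 33 in SCNT4c-TDG and 395 ± 275 in SCNT8c. *DCLK1*, a microtubule-binding kinase, had means of 962 ± 17.8 in PFF, 602 ± 74.1 in SCNT4c, 301 ± 28.4 in SCNT4c-KG, 392 ± 18.3 in SCNT4c-TDG and 298 ± 154 in SCNT8c. *CTNNAL1*, a catenin-like protein, had means of 307 ± 28.7 in PFF, 158 ± 36.3 in SCNT4c, 195 ± 102 in SCNT4c-KG, 324 ± 140.4 in SCNT4c-TDG and 88.8 ± 79 in SCNT8c. *VASH2*, a carboxypeptidase of tubulin, had means of 205 ± 28 in PFF, 104 ± 28.7 in SCNT4c, 15.9 ± 11.7 in SCNT4c-KG, 28 ± 5.23 in SCNT4c-TDG and 54.4 ± 78.6 in SCNT8c. Apart from *CTNNAL1*, these genes had every treated library below the SCNT4c libraries.

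Members of vesicle traffic and related signalling had lower PFF means. *RAB6B*, a GTPase of the Golgi, had means of 229.9 ± 36 in PFF, 161 ± 39.8 in SCNT4c, 41.5 ± 32.8 in SCNT4c-KG, 33 ± 22.9 in SCNT4c-TDG and 40.6 ± 35.9 in SCNT8c. *RINL*, an exchange factor for RAB GTPases, had means of 134 ± 3.13 in PFF, 68.8 ± 79.9 in SCNT4c, 5.32 ± 6.59 in SCNT4c-KG, 12.9 ± 2.17 in SCNT4c-TDG and 8.46 ± 4.99 in SCNT8c. *DOCK10*, an exchange factor for small GTPases, had means of 68.6 ± 14.3 in PFF, 34.7 ± 14.9 in SCNT4c, 22.2 ± 8.33 in SCNT4c-KG, 9.05 ± 6.54 in SCNT4c-TDG and 2.22 ± 3.84 in SCNT8c. *RINL* stood under 0.1 times the SCNT4c mean in SCNT4c-KG, and the SD of its SCNT4c values was above the mean.

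Receptors and signalling proteins formed the largest group, with 27 genes, of which 19 were under 0.5 times the SCNT4c mean in SCNT4c-KG and 15 in SCNT4c-TDG. *HRH1*, a receptor of histamine, was listed at 244, 245 and 259 in PFF, at 155, 158 and 117 in SCNT4c, at 0, 2.54 and 1.42 in SCNT4c-KG, at 0, 6.14 and 27.5 in SCNT4c-TDG and at 0, 0 and 33.8 in SCNT8c. Every treated library lay below every SCNT4c library, and the SCNT4c-KG values are those of 0 to 2 reads. *CNR1*, a cannabinoid receptor, was listed at 108, 119.7 and 133 in PFF, at 124, 54.2 and 16.6 in SCNT4c, at 3.27, 2.54 and 0 in SCNT4c-KG, at 0, 1.53 and 13 in SCNT4c-TDG and at 0, 43.2 and 0 in SCNT8c, again with all treated libraries below SCNT4c. *HTR2A*, a serotonin receptor, had means of 142 ± 41.4 in PFF, 77.9 ± 62.6 in SCNT4c, 5.86 ± 5.21 in SCNT4c-KG, 30.8 ± 14.8 in SCNT4c-TDG and 32.9 ± 3.09 in SCNT8c.

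Other receptors of the cell surface spread more between libraries. *PROKR1*, a prokineticin receptor, had means of 122 ± 19 in PFF, 71.9 ± 48.3 in SCNT4c, 80.029 ± 35.5 in SCNT4c-KG, 50.2 ± 33.5 in SCNT4c-TDG and 33.3 ± 33.9 in SCNT8c. *QRFPR*, a receptor of an RF-amide peptide, had means of 66.3 ± 22.7 in PFF, 42.6 ± 12.6 in SCNT4c, 19.8 ± 7.91 in SCNT4c-KG, 10.9 ± 12.3 in SCNT4c-TDG and 10.1 ± 14.4 in SCNT8c. *NPR1*, a natriuretic peptide receptor, had means of 67.1 ± 18 in PFF, 37.5 ± 6.11 in SCNT4c, 24.1 ± 21 in SCNT4c-KG, 22.2 ± 7.97 in SCNT4c-TDG and 4.57 ± 4.28 in SCNT8c. *UNC5A*, a netrin receptor, had means of 88.4 ± 18.5 in PFF, 43.8 ± 42.3 in SCNT4c, 41.7 ± 48.7 in SCNT4c-KG, 8.2 ± 9.56 in SCNT4c-TDG and 20.7 ± 18.8 in SCNT8c. *IL1R1*, the interleukin-1 receptor, had means of 96.4 ± 10.8 in PFF, 65.7 ± 38.5 in SCNT4c, 12.9 ± 15.9 in SCNT4c-KG, 15.1 ± 8.19 in SCNT4c-TDG and 31.2 ± 39.4 in SCNT8c. *LRIG3*, a membrane regulator of growth factor receptors, had means of 381 ± 52.1 in PFF, 304 ± 141 in SCNT4c, 52.4 ± 38.3 in SCNT4c-KG, 202 ± 11 in SCNT4c-TDG and 122 ± 34.3 in SCNT8c. Only *QRFPR* among these 6 had both treated groups below SCNT4c in every library.

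Immune genes included the Toll-like receptor *TLR1*, which was listed at 109.9, 58.6 and 79.9 in PFF, at 59.9, 83 and 39.9 in SCNT4c, at 13.1, 2.54 and 0 in SCNT4c-KG, at 46.8, 26.8 and 65.8 in SCNT4c-TDG and at 1.87, 38.2 and 10.6 in SCNT8c. *CYTIP*, which binds cytohesins in leukocytes, was listed at 103, 96.8 and 105 in PFF, at 50.5, 61.2 and 88 in SCNT4c, at 11.4, 0 and 0 in SCNT4c-KG, at 48.5, 26.1 and 73.5 in SCNT4c-TDG and at 33.6, 0 and 19 in SCNT8c. In both genes every SCNT4c-KG library was below the SCNT4c and SCNT4c-TDG libraries. *SOCS1*, a suppressor of cytokine signalling, was listed at 63.5, 54.8 and 75.1 in PFF, at 112, 15.7 and 2.49 in SCNT4c, at 81.7, 131.98 and 119.7 in SCNT4c-KG, at 217, 278 and 220.4 in SCNT4c-TDG and at 3.73, 21.6 and 25.4 in SCNT8c, so that its SCNT4c mean rests on library a. *NLRC5*, an activator of MHC class I genes, had means of 121 ± 28.3 in PFF, 64.6 ± 44.7 in SCNT4c, 28 ± 31.9 in SCNT4c-KG, 9.71 ± 9.24 in SCNT4c-TDG and 2.73 ± 3.4 in SCNT8c. *IFN-OMEGA-3*, an interferon, was listed at 59.9, 57.3 and 39.3 in PFF, at 26, 44.6 and 27.4 in SCNT4c, at 14.7, 5.08 and 0 in SCNT4c-KG, at 0, 0 and 3.06 in SCNT4c-TDG and at 0, 13.3 and 34.9 in SCNT8c.

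Enzymes of cyclic nucleotides were represented by 2 members. *PDE3A*, a phosphodiesterase of cAMP known from the control of oocyte maturation, had means of 1407 ± 114 in PFF, 790.1 ± 169 in SCNT4c, 149 ± 23.7 in SCNT4c-KG, 482 ± 162 in SCNT4c-TDG and 385 ± 222 in SCNT8c. *PDE8A*, another phosphodiesterase of cAMP, had means of 2136 ± 116 in PFF, 1652 ± 42.7 in SCNT4c, 274 ± 173 in SCNT4c-KG, 875 ± 40.5 in SCNT4c-TDG and 688 ± 438 in SCNT8c. In both the SCNT4c-KG mean was under 0.2 times and the SCNT4c-TDG mean over 0.5 times the SCNT4c mean.

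Members of the RAS and MAP kinase pathways were not alike. *SOS2*, an exchange factor of RAS, was listed at 1312, 1223 and 1144 in PFF, at 581, 838 and 719.8 in SCNT4c, at 150.3, 137 and 192 in SCNT4c-KG, at 651, 878 and 638 in SCNT4c-TDG and at 218, 134 and 629.7 in SCNT8c. *RASL12*, a RAS-like GTPase, had means of 1936 ± 282 in PFF, 1031 ± 318 in SCNT4c, 233 ± 133 in SCNT4c-KG, 202 ± 89.6 in SCNT4c-TDG and 429 ± 524 in SCNT8c. *FRS3*, an adaptor of growth factor receptors, had means of 101 ± 22 in PFF, 63.3 ± 66.8 in SCNT4c, 7.47 ± 7.15 in SCNT4c-KG, 4.44 ± 1.02 in SCNT4c-TDG and 11.3 ± 19.5 in SCNT8c. *MAPKBP1*, a binding protein of JNK, had means of 1073 ± 60.6 in PFF, 595 ± 359 in SCNT4c, 81.2 ± 24.5 in SCNT4c-KG, 174 ± 22.6 in SCNT4c-TDG and 235 ± 273 in SCNT8c. *DUSP7*, a phosphatase of MAP kinases, had means of 127 ± 10.8 in PFF, 89.8 ± 28.7 in SCNT4c, 46.4 ± 34.3 in SCNT4c-KG, 23.8 ± 3.35 in SCNT4c-TDG and 22.5 ± 38.2 in SCNT8c. In *SOS2* the SCNT4c-TDG mean was 1.01 times the SCNT4c mean, and in *RASL12*, *FRS3*, *MAPKBP1* and *DUSP7* it was under 0.3 times.

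Further signalling proteins had means as follows. *PRKCD*, a protein kinase C, averaged 137 ± 39.2 in PFF, 76.2 ± 29.1 in SCNT4c, 34 ± 20.3 in SCNT4c-KG, 61.2 ± 17.5 in SCNT4c-TDG and 31.3 ± 23.4 in SCNT8c. *SNRK*, a kinase related to AMPK, averaged 116 ± 13 in PFF, 79.8 ± 45.3 in SCNT4c, 102 ± 28 in SCNT4c-KG, 246 ± 33.1 in SCNT4c-TDG and 15.3 ± 18.8 in SCNT8c. *TSSK4*, a kinase of the testis, averaged 85.5 ± 5.48 in PFF, 112 ± 58 in SCNT4c, 18 ± 15.6 in SCNT4c-KG, 8.24 ± 3.56 in SCNT4c-TDG and 25.3 ± 27.7 in SCNT8c. *DLL1*, a ligand of Notch, averaged 119 ± 24 in PFF, 80.5 ± 41.1 in SCNT4c, 9.5 ± 16.5 in SCNT4c-KG, 10.9 ± 9.88 in SCNT4c-TDG and 10.027 ± 1.52 in SCNT8c. *PLEKHA2*, which binds phosphoinositides, averaged 1393 ± 16 in PFF, 749.7 ± 212 in SCNT4c, 482 ± 147 in SCNT4c-KG, 629.7 ± 67.8 in SCNT4c-TDG and 284 ± 189 in SCNT8c. *KCTD12*, an auxiliary subunit of GABA receptors, averaged 541 ± 62 in PFF, 285 ± 24.9 in SCNT4c, 243 ± 189 in SCNT4c-KG, 72.7 ± 28.1 in SCNT4c-TDG and 90.2 ± 75.6 in SCNT8c. *SNRK* alone among these 6 had a treated mean over 2 times the SCNT4c mean, in SCNT4c-TDG.

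Regulators of transcription and chromatin numbered 14, of which 8 were under 0.5 times the SCNT4c mean in SCNT4c-KG and 7 in SCNT4c-TDG. *RFX5*, which activates MHC class II genes, was listed at 59.9, 40.8 and 63.2 in PFF, at 51.3, 53.3 and 13.3 in SCNT4c, at 764, 610.4 and 296 in SCNT4c-KG, at 142, 278 and 280.0 in SCNT4c-TDG and at 8.4, 15 and 26.4 in SCNT8c. All treated libraries were above all PFF and SCNT4c libraries. *UHRF1*, which brings the maintenance methyltransferase to DNA after replication and is stored in oocytes, was listed at 161, 108 and 128.7 in PFF, at 67, 151 and 78 in SCNT4c, at 155, 178 and 78.4 in SCNT4c-KG, at 11.7, 6.14 and 29.8 in SCNT4c-TDG and at 19.6, 3.33 and 100.4 in SCNT8c. Its SCNT4c-TDG libraries were below all libraries of SCNT4c and SCNT4c-KG.

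Chromatin proteins with high values in PFF were *ZBTB38*, *SMARCD1* and *POGZ*. *ZBTB38*, which binds methylated DNA, averaged 3486 ± 129.1 in PFF, 1985 ± 647 in SCNT4c, 1182 ± 286 in SCNT4c-KG, 1195 ± 211 in SCNT4c-TDG and 857 ± 571 in SCNT8c. *SMARCD1*, a subunit of the SWI/SNF remodelling complex, averaged 1733 ± 50.4 in PFF, 1286 ± 146 in SCNT4c, 581 ± 87.2 in SCNT4c-KG, 672 ± 87.4 in SCNT4c-TDG and 449 ± 207 in SCNT8c. *POGZ*, a zinc finger protein bound to heterochromatin protein, averaged 1588 ± 50.2 in PFF, 1311 ± 144 in SCNT4c, 286 ± 92.4 in SCNT4c-KG, 579 ± 73.2 in SCNT4c-TDG and 452 ± 377 in SCNT8c. *KDM7A*, a demethylase of histone H3, averaged 257 ± 15.6 in PFF, 136 ± 71.3 in SCNT4c, 229 ± 120.0 in SCNT4c-KG, 305 ± 129.0 in SCNT4c-TDG and 82.2 ± 65.8 in SCNT8c. *PYGO2*, a reader of histone H3 in Wnt signalling, averaged 369 ± 3.26 in PFF, 279 ± 36.5 in SCNT4c, 98.4 ± 34.1 in SCNT4c-KG, 53 ± 25.2 in SCNT4c-TDG and 105 ± 69.4 in SCNT8c. In *SMARCD1*, *POGZ* and *PYGO2* every treated library was below the SCNT4c libraries, and in *KDM7A* every SCNT4c-TDG library was above them.

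Transcription factors known from particular lineages completed this group. *PAX5*, a factor of B cells, averaged 152 ± 21.6 in PFF, 207 ± 36.3 in SCNT4c, 54.6 ± 24.3 in SCNT4c-KG, 43.9 ± 22.2 in SCNT4c-TDG and 32.8 ± 35.8 in SCNT8c. *IKZF2*, a factor of T cells, averaged 454 ± 69.7 in PFF, 346 ± 97.7 in SCNT4c, 184 ± 65 in SCNT4c-KG, 179 ± 28.1 in SCNT4c-TDG and 140.4 ± 33.8 in SCNT8c. *NFATC2*, a factor of activated T cells, averaged 153 ± 12.1 in PFF, 149 ± 71.1 in SCNT4c, 71.4 ± 28.1 in SCNT4c-KG, 189 ± 22.8 in SCNT4c-TDG and 47.5 ± 28.8 in SCNT8c. *TLX3*, a homeobox factor of neurons, averaged 211 ± 15.1 in PFF, 122 ± 194 in SCNT4c, 58.8 ± 36.3 in SCNT4c-KG, 57.3 ± 16.8 in SCNT4c-TDG and 18.6 ± 12.2 in SCNT8c. *HOXB6*, a homeobox factor of the body axis, averaged 55.9 ± 19.8 in PFF, 33.1 ± 43.5 in SCNT4c, 12.8 ± 11.3 in SCNT4c-KG, 2.04 ± 1.77 in SCNT4c-TDG and 1.41 ± 2.44 in SCNT8c. *ETV1*, a factor of the ETS family, averaged 83.3 ± 12.4 in PFF, 45 ± 23.9 in SCNT4c, 109 ± 15.9 in SCNT4c-KG, 58.9 ± 2.71 in SCNT4c-TDG and 10.6 ± 17.5 in SCNT8c. *ZNF366*, a zinc finger factor of dendritic cells, averaged 71.5 ± 10.5 in PFF, 73.3 ± 20.9 in SCNT4c, 22.6 ± 34.8 in SCNT4c-KG, 17.1 ± 6.12 in SCNT4c-TDG and 17 ± 20.4 in SCNT8c. In *TLX3* and *HOXB6* the SD of SCNT4c exceeded the mean, and both depended on library a.

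Matrix and adhesion genes were few, at 6, in contrast to the collagens and other matrix genes of the fibroblast list. *HMCN1*, a matrix protein of the hemicentin type, averaged 149 ± 9.71 in PFF, 101 ± 40.5 in SCNT4c, 49.5 ± 23.6 in SCNT4c-KG, 174 ± 25.6 in SCNT4c-TDG and 42.1 ± 36.9 in SCNT8c. *ADAMTSL1*, a secreted glycoprotein of the matrix, averaged 149.97 ± 49 in PFF, 85 ± 44.8 in SCNT4c, 109 ± 31.3 in SCNT4c-KG, 45 ± 14.4 in SCNT4c-TDG and 23.6 ± 29.1 in SCNT8c. *MMRN2*, a matrix protein of blood vessels, averaged 113 ± 3.27 in PFF, 56.2 ± 29.7 in SCNT4c, 27.6 ± 11.7 in SCNT4c-KG, 47.1 ± 27.7 in SCNT4c-TDG and 16.4 ± 24 in SCNT8c. *CADM2*, an adhesion protein of neurons, averaged 108 ± 7.72 in PFF, 64.6 ± 4.55 in SCNT4c, 25 ± 21.9 in SCNT4c-KG, 31.2 ± 25.6 in SCNT4c-TDG and 29.5 ± 20.4 in SCNT8c. *TENM4*, a teneurin, averaged 106 ± 21.7 in PFF, 59.2 ± 35.4 in SCNT4c, 55.9 ± 38.7 in SCNT4c-KG, 21.6 ± 5.22 in SCNT4c-TDG and 16 ± 5.02 in SCNT8c. *LRFN3*, an adhesion protein of synapses, averaged 57.5 ± 26.2 in PFF, 45.1 ± 60.3 in SCNT4c, 18.1 ± 21.1 in SCNT4c-KG, 2.3 ± 2.76 in SCNT4c-TDG and 15.5 ± 26.8 in SCNT8c. Only *CADM2* had every library of both treated groups below the SCNT4c libraries.

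The members with roles in meiosis were *MEIOB* and *HFM1*. *MEIOB*, which binds single-stranded DNA during meiotic recombination, averaged 676 ± 76.3 in PFF, 415 ± 49.9 in SCNT4c, 83.1 ± 25.5 in SCNT4c-KG, 159 ± 23 in SCNT4c-TDG and 191 ± 39.3 in SCNT8c. *HFM1*, a helicase needed for crossovers, averaged 215 ± 18.2 in PFF, 157 ± 38.9 in SCNT4c, 41.2 ± 24.9 in SCNT4c-KG, 118 ± 24.4 in SCNT4c-TDG and 63.2 ± 21.8 in SCNT8c. Both were under 0.3 times the SCNT4c mean in SCNT4c-KG.

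A further 12 genes were placed in no role group. *SLC12A5*, a cotransporter of potassium and chloride known from neurons, was listed at 161, 196 and 120.4 in PFF, at 146, 133 and 34.9 in SCNT4c, at 0, 0 and 0 in SCNT4c-KG, at 34.3, 12.3 and 20.7 in SCNT4c-TDG and at 27.1, 22.4 and 39.1 in SCNT8c. No read was seen in any SCNT4c-KG library, and against a floor of 3 reads per library, a value of 4.33, the SCNT4c mean was at least 24.2-fold higher. *CCDC61*, a protein of basal bodies, was listed at 649.9, 646 and 735 in PFF, at 946, 178 and 70.6 in SCNT4c, at 22.9, 19 and 0 in SCNT4c-KG, at 72.8, 26.1 and 46.7 in SCNT4c-TDG and at 51.3, 82.3 and 132.1 in SCNT8c, with SCNT4c library a far above b and c. *CRYBG3*, a crystallin-related protein, was listed at 838, 805 and 719.9 in PFF, at 557, 628 and 669 in SCNT4c, at 134, 217 and 400.4 in SCNT4c-KG, at 935, 917 and 1299 in SCNT4c-TDG and at 141, 53.2 and 246 in SCNT8c, with SCNT4c-KG below and SCNT4c-TDG above SCNT4c in every library.

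The rest of these genes were less studied. *YPEL3*, a protein of the yippee family, averaged 1071 ± 57.3 in PFF, 635 ± 715 in SCNT4c, 1473 ± 878 in SCNT4c-KG, 1017 ± 398 in SCNT4c-TDG and 154 ± 162 in SCNT8c. *TMEM150A*, a membrane protein, averaged 692 ± 45 in PFF, 384 ± 127 in SCNT4c, 197 ± 99.6 in SCNT4c-KG, 169.5 ± 24.3 in SCNT4c-TDG and 214 ± 247 in SCNT8c. *KIAA0040* averaged 252 ± 30.2 in PFF, 295 ± 95.8 in SCNT4c, 63.9 ± 30.2 in SCNT4c-KG, 73.6 ± 2.21 in SCNT4c-TDG and 59.8 ± 46.2 in SCNT8c. *C1H15orf61* averaged 119.6 ± 38.8 in PFF, 80.7 ± 46.6 in SCNT4c, 141 ± 10.1 in SCNT4c-KG, 89.2 ± 13.4 in SCNT4c-TDG and 13.4 ± 7.27 in SCNT8c. *CCDC87* averaged 77.2 ± 8.54 in PFF, 65.3 ± 34.6 in SCNT4c, 17.6 ± 18 in SCNT4c-KG, 23.7 ± 9.82 in SCNT4c-TDG and 20.3 ± 23 in SCNT8c. *PP2D1*, a phosphatase-like protein, averaged 75.4 ± 16.9 in PFF, 48.6 ± 28.4 in SCNT4c, 5.09 ± 3.46 in SCNT4c-KG, 23.4 ± 9.59 in SCNT4c-TDG and 7.0 ± 6.16 in SCNT8c. *CLIC2*, a chloride channel-like protein, averaged 71.6 ± 27.9 in PFF, 40.049 ± 18.2 in SCNT4c, 60.2 ± 22.1 in SCNT4c-KG, 30.9 ± 11.5 in SCNT4c-TDG and 17.2 ± 6.35 in SCNT8c. *C7H14orf132* averaged 68.4 ± 2.21 in PFF, 87 ± 120.0 in SCNT4c, 8.83 ± 10.2 in SCNT4c-KG, 18.6 ± 15.6 in SCNT4c-TDG and 5.54 ± 9.6 in SCNT8c. *FAM71E1* averaged 53.1 ± 5.61 in PFF, 27.1 ± 25 in SCNT4c, 26.8 ± 19.4 in SCNT4c-KG, 7.78 ± 5.95 in SCNT4c-TDG and 10.9 ± 6.06 in SCNT8c. Of these 9, *KIAA0040* alone had every treated library below the SCNT4c libraries in both treated groups.

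Among the 16 LOC entries, PFF means ranged from 50.2 to 2406, and 11 were under 0.5 times the SCNT4c mean in SCNT4c-KG and 12 in SCNT4c-TDG. The 3 with the highest PFF mean were LOC100152428, LOC110259485 and LOC102164998. LOC100152428 averaged 2406 ± 148 in PFF, 1562 ± 399 in SCNT4c, 199.8 ± 78.3 in SCNT4c-KG, 673 ± 159.6 in SCNT4c-TDG and 545 ± 331 in SCNT8c. LOC110259485 averaged 351 ± 42.4 in PFF, 323 ± 35.5 in SCNT4c, 35.1 ± 34.3 in SCNT4c-KG, 73 ± 38.4 in SCNT4c-TDG and 102 ± 75.4 in SCNT8c. LOC102164998 averaged 289 ± 21.2 in PFF, 155 ± 56.3 in SCNT4c, 59.8 ± 7.49 in SCNT4c-KG, 20.5 ± 25.4 in SCNT4c-TDG and 35.8 ± 32.7 in SCNT8c. In all 3, every treated library was below the SCNT4c libraries. No read of LOC102162815, LOC102157750 or LOC100513604 was seen in SCNT4c-KG. Against the floor of 3 reads their SCNT4c means were at least 10.6-fold, 7.14-fold and 6.00-fold higher.

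The direct comparison of the 2 treatments does not use the groups that chose the members, although SCNT4c and SCNT8c enter the estimate of the spread. The 2 groups also differ in vector-selected donor cells, doxycycline, *KDM4A* mRNA and GSK126 at once, and these cannot be told apart here. In limma over the 12 embryo libraries, 3070 of 18942 features differed (16.2%), 1340 higher in SCNT4c-TDG (7.07%) and 1730 lower (9.13%). Of the 128 members that passed the filter on low values, 27 differed, 20 higher and 7 lower in SCNT4c-TDG. The member below the filter was LOC100513604. The median log2 fold change was 0.40 over the members and -0.02 over all features. With the same total in each library the median over all features shifted to 0.34, and the share of called features that were higher in SCNT4c-TDG went from 43.6% to 64.3%. Of 129 members tested under this setting 29 were called higher and 4 lower, where 2050 and 1140 of 19546 features were. A fit of the 2 treated groups alone called 41 of 115 members and 4989 of 18158 features. Leaving out 1 treated library left 14 to 25 of 128 members. Without SCNT4c-TDG replicate 2, 14 members and 1809 of 18992 features were called. Without SCNT4c-KG replicate 1 the counts were 16 and 2100 of 18872, and without SCNT4c-TDG replicate 1 they were 17 and 1878 of 18940. Under every setting tried 9 members were called, among them *ATG2B*, *CORO1C*, *DDHD2*, *JMY*, *NUP133*, *RANBP9*, *SOS2* and *ZFAND2A*. The calls of *CYTIP*, *TLR1*, *ABHD17B* and LOC102162815 were each lost under 8 settings. That of *GAA* was lost under 7, of *ZFAND5* under 6 and of *UHRF1* under 5.

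Higher in SCNT4c-TDG by the largest amounts were *SLC12A5*, *CYTIP* and *TLR1*, each with a value of 0 in at least 1 SCNT4c-KG library. *SLC12A5* had a log2 fold change of 4.44 ± 0.82 (± SE) with an adjusted p of 0.00222, and against the floor of 3 reads its SCNT4c-TDG mean was at least 5.18-fold higher. *CYTIP* had a log2 fold change of 4.32 ± 1.27 and an adjusted p of 0.0306. *TLR1* had a log2 fold change of 3.60 ± 1.08 and an adjusted p of 0.0336. *CRYBG3* had a log2 fold change of 2.19 ± 0.52 and an adjusted p of 0.00937. For *SLC12A5*, *CYTIP* and *TLR1*, with values of 0 in SCNT4c-KG, fold changes on the log2(value + 1) scale depend on the 1 added. For *CYTIP* and *TLR1* they were larger than the ratio of the group means.

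Among genes with larger values, *RANBP9* and *SOS2* were higher on the log2 scale by 2.15 ± 0.41 and 2.17 ± 0.47, and *NUP133* and *JMY* by 1.97 ± 0.38 and 1.98 ± 0.37. The lipid and autophagy genes *ATG2B*, *DDHD2* and *LPIN2* were higher by 1.68 ± 0.33, 1.43 ± 0.33 and 1.30 ± 0.32, and the phosphodiesterase genes *PDE8A* and *PDE3A* by 1.93 ± 0.50 and 1.64 ± 0.44. *LRIG3*, *ABHD17B*, *ZFAND5* and *EIF4G2* were higher by 2.15 ± 0.55, 1.84 ± 0.58, 1.38 ± 0.38 and 1.13 ± 0.29. LOC102162815 and LOC100152428 were also higher, at 3.59 ± 1.09 and 1.80 ± 0.45, the first with no read in SCNT4c-KG. Against the floor of 3 reads the SCNT4c-TDG mean of LOC102162815 was at least 4.08-fold higher.

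Lower in SCNT4c-TDG were 7 genes. *ZFAND2A* had a log2 fold change of -3.75 ± 0.69 and an adjusted p of 0.00213. *UHRF1* had a log2 fold change of -3.21 ± 0.96 and an adjusted p of 0.0329. The summed oocyte and maternal RNAs, to whose list *UHRF1* belongs, were also lower in each SCNT4c-TDG library than in each SCNT4c-KG library, by the values given above. *GAA*, *CORO1C* and *PIP4K2B* had log2 fold changes of -2.16 ± 0.66, -1.65 ± 0.34 and -1.43 ± 0.37, and *UCHL1* and *EPRS* of -1.32 ± 0.31 and -1.21 ± 0.28. In all 27 genes the 3 libraries of one treatment lay on one side of the 3 libraries of the other. The calls were made from these same libraries and favour such genes, so this is no further support.

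**Figure D5:**
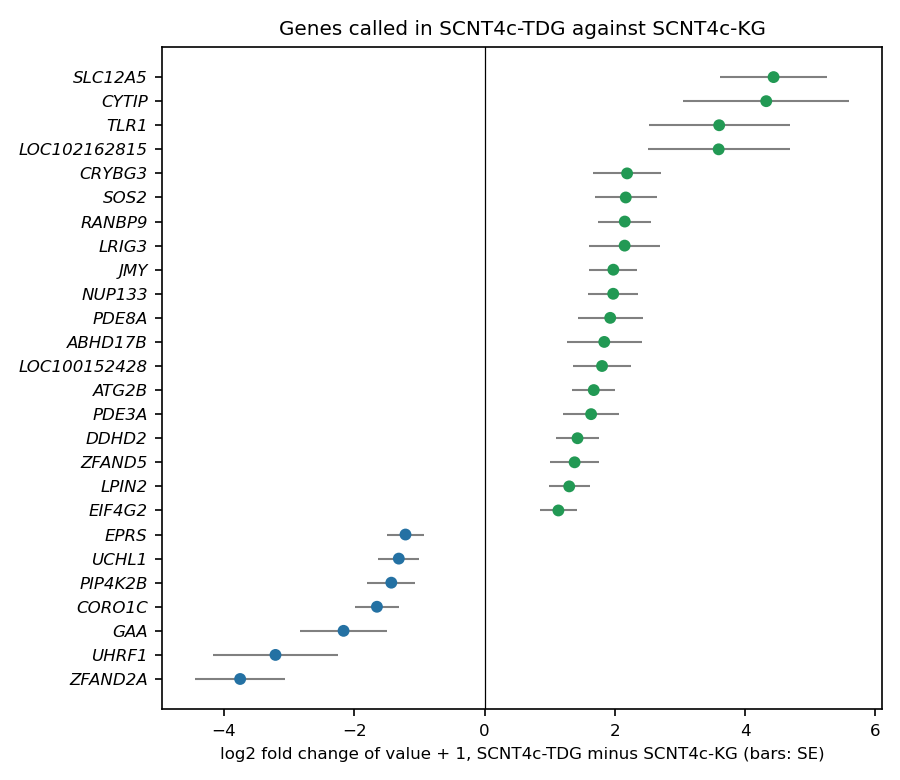
Log2 fold change of value + 1 between SCNT4c-TDG and SCNT4c-KG (x axis, bars are SE, n = 3 libraries in each group) for the called genes that are reported (y axis). Genes right of 0 were higher in SCNT4c-TDG and the 7 left of it were lower.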

How the data were processed

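RNA-seq values of 15 libraries, 3 in each of 5 groups, were analysed. According to the methods and the submitters' processing notes, the authors used Trimmomatic 0.39 for trimming and STAR 2.5.3a for alignment to Sscrofa11.1, with unique alignments kept. StringTie 2.1.2 served for assembly of transcripts and HTSeq for counting. The values deposited by the authors are a normalized signal in which each library's counts were scaled by 1 factor, and 100% of them gave back whole reads when divided by it (tolerance 0.01 reads). Embryo cDNA was amplified before sequencing, so reads are not independent molecules, and the floor of 3 reads covers counting error only.

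Of 43535 entries 241 repeats were removed, and 15070 assembled transcripts were kept for adjustment but not for the rule. The members, role groups and marker lists were chosen with earlier results of these data known, and the roles were assigned by hand after the members were known. Each member with a symbol is given with its group means, apart from a few that are not reported here and remain in the counts. Values in every library are given for the 8 members with the highest PFF mean, for the 4 with the lowest and the 4 with the highest ratio to SCNT4c in each treated group, and for the 6 with the largest called difference between the treatments. LOC entries are given as counts and ranges, with the 3 of highest PFF mean. The values in every library of *RANBP9*, *ATG2B*, *DDHD2*, *CORO1C*, *JMY* and *SOS2* were added after their values were seen.

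Tests used limma 3.58.1 in R 4.3.3 on log2(value + 1) with an intensity trend, where the mean of a feature over the fitted embryo libraries reached 10, with Benjamini-Hochberg adjustment over all of them. Calls required more than a 2-fold difference and an adjusted p under 0.05. The smallest exact permutation p with 3 against 3 libraries is 0.1. Alternatives were other pseudocounts and minimum values, the same total, quantile normalization, edgeR 4.0.16 and DESeq2 1.42.0 on recovered reads, a fit of the 2 treated groups alone, a replicate block, other limits of the rule, and each library left out. The sum with assembled transcripts and the settings without SCNT8c replicate 3 or SCNT4c library a in a fit were chosen after seeing the data. Sequences were read from the RefSeq genome Sscrofa11.1.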

Additional observations from a re-analysis of the deposited data

Results flagged for a closer look

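In the following genes every SCNT4c-KG library lay below and every SCNT4c-TDG library above the SCNT4c libraries, so the 2 treatments stood on opposite sides of the untreated embryos. The difference between the treatments was tested with limma, and its log2 value (SCNT4c-TDG minus SCNT4c-KG) was 1.68 for *ATG2B*, 2.19 for *CRYBG3*, 1.43 for *DDHD2* and 2.15 for *RANBP9*. The SCNT4c libraries helped to choose these genes, and both treated groups were compared with the same 3 libraries.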

How the results depend on the processing

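The number of genes that met the rule was 303 with a PFF mean of at least 10, 65 with at least 200, 40 with a PFF to SCNT8c ratio above 5, 53 with a PFF to SCNT4c ratio under 1.5, and 97 to 244 with 1 library left out. The share of members under 0.5 times the SCNT4c mean in SCNT4c-KG was 65.9% with a pseudocount of 0.1, 54.3% with 10, 68.2% with the same total, and 57.4% to 65.9% with 1 library left out. In SCNT4c-TDG it was 49.6% with the same total and 45.7% to 58.9% with 1 library left out. For genes chosen with library a, b or c alone, the SCNT4c-KG share was 75%, 62.5% and 57.6% against the same library and 48.2%, 46.9% and 51.5% against the other 2. For SCNT4c-TDG it was 73.7% and 47.5% for libraries a and c against the same library, and 42.4%, 42.2% and 42.4% against the other 2. With genes chosen and compared without SCNT8c replicate 3 the SCNT4c-KG share was 69.7%, and without SCNT4c library a the shares were 61.9% and 44.3%.

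For the held-out test without SCNT8c replicate 3, the percent of chosen genes called lower was 37.6, 43.6 and 52.3 in SCNT4c-KG and 30.0, 34.9 and 40.1 in SCNT4c-TDG. Between the treatments, fitting only these 2 groups called 4989 of 18158 features and 41 of 115 members. Leaving out 1 library called 1794 to 2521 features, with 18872 to 18994 tested, and 14 to 25 of 128 members. With the replicate block the fit called 4805 of 18158 features and 40 of 115 members. Same-numbered libraries had deviation correlations of -0.0012, -0.002 and 0.0246, which gives no pairing. Of 27 members called, 9 passed under every setting and 0 changed direction. Of 699 combinations of a named gene and a setting 4 changed direction, all in genes that were not called. *DYNC1I2* reached 0.21 with the same total and 0.27 with quantile normalization, and *CNR1* ranged from -0.63 to 1.27 with 1 library left out. The causes were not tested. SCNT4c-KG had the fewest reads, which limits values near 0 in that group.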

Other observations

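Among 15070 assembled transcripts without a gene name, 24 also met the 3 limits of the rule. Of the 129 genes, 77 had an assembled transcript at the same locus. When a gene was summed with the assembled transcripts of its locus, 141 genes met the rule, and *FRMD4A*, *DCLK1*, *KDM7A*, *RSRP1*, *HMCN1*, *DUSP7*, *SNRK*, *UNC5A* and *CERS6* no longer did.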
